A study of Mus musculus with 15 samples.

Results

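The subunits of the oxidative phosphorylation system were followed in embryonic mouse pancreas as a set of 98 genes among the 25292 genes of the count table, of which 18019 were protein-coding. Members were the protein-coding genes whose GENCODE M21 symbol begins with Nduf followed by a, b, c, s or v and a number, with Uqcr, with Cox and a digit from 4 to 8, or with Atp5, together with Sdha to Sdhd, Cyc1 and the protein-coding genes of the mitochondrial genome. The rule uses names and no measured value. Of the 98 genes, 85 were nuclear and 13 mitochondrial. The nuclear set held 35 genes of complex I, 4 of complex II, 9 of complex III, 20 of complex IV and 17 of complex V. Ndufa4 and Ndufa4l2 were counted with complex IV, and Atp5s, a coupling factor of the ATP synthase, was taken in by the rule. A total of 92 members, 82 nuclear and 10 mitochondrial, had enough reads to be tested among 16245 genes. The others, mt-Nd3, mt-Nd4l, mt-Atp8, Cox7b2, Cox8b and Cox8c, had no more than a few reads in any library.

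Poly(A) RNA of C57/Bl6J embryonic pancreata was sequenced in 5 groups of 3 libraries, each made from a pool of up to 3 organs or explants. Fresh 14.5 dpc pancreata formed 2 groups, labelled wt and S1pr2 null and called so here. By the methods of the study the null carries S1pr2tm1Rlp, in which a neo cassette disrupts the gene of the sphingosine-1-phosphate receptor S1pr2. The other groups were explants of the same stage, described in the methods as dorsal pancreatic buds, which grew for 2 days at an air-liquid interface (ALI). They were grown in standard medium (control), with 15 µM JTE013, an S1pr2 antagonist (JTE), or with 15 µM JTE013 and 50 ng/ml of the connective tissue growth factor CTGF (JTE + CTGF). The comparisons ask how the null genotype, a block of the receptor and added CTGF change expression, and P-values measure the spread between these pooled samples only.

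Oxidative phosphorylation couples the oxidation of NADH and succinate to ATP synthesis. Electrons enter at complex I (NADH dehydrogenase) and complex II (succinate dehydrogenase), pass through complex III (the cytochrome bc1 complex) to complex IV (cytochrome c oxidase), and the proton gradient that complexes I, III and IV build drives complex V, the ATP synthase. All complexes except complex II are assembled from subunits of both genomes, so nuclear and mitochondrial transcripts must be produced side by side, and several subunits of complex IV exist as isoforms typical of muscle, testis or hypoxic tissue.

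Libraries held 11402804 to 13828737 assigned reads and the biological coefficient of variation was 7.3%. The third JTE library stood apart from its replicates (chi-square per gene of 16.2 and 21.8, against at most 9.60 in any other replicate pair), and values without it are given where they matter. S1pr2 itself had 796 to 858 reads in wt and 1368 to 1609 in the libraries labelled S1pr2 null; these reads are summed over the whole gene and do not show whether the disrupted part is transcribed, so they do not check the label. Markers of pancreatic epithelium and mesenchyme were expressed in every group. Red blood cell markers summed to between 14829 and 22450 normalised reads in the fresh organs, to between 223 and 698 in control and JTE explants and to between 1462 and 2340.5 in JTE + CTGF explants. Macrophage markers summed to between 4038 and 4374 normalised reads in control explants, to between 1075 and 1632 in the treated explants and to between 1762 and 1953 in fresh organs. The part of these cells in the results below was not tested.

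The mitochondrial genes fall into groups set by their sequence, which is shown first because it bears on which of them can be counted. Mouse chromosome 1 carries a near-complete nuclear copy of a stretch of the mitochondrial genome (mm10, chr1:24611535-24616197), and reads that fit both places equally well were not counted. The first bases of mt-Co2, the gene of subunit 2 of cytochrome c oxidase, at chrM:7013-7072 on the plus strand, and of its annotated copy Gm28661 at chr1:24615506-24615565 on the minus strand, read as follows; no capitals are used because the stretch holds no mismatch.
mt-Co2: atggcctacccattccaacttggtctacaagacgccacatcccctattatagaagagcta
Gm28661: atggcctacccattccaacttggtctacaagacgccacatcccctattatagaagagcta
The copies aligned over 681 bases of mt-Co2, 678 of mt-Atp6, 783 of mt-Co3 and 876 of mt-Nd4 without a mismatch. Words were searched in annotated transcripts only, not in the rest of the genome. The share of 50-base words found in a transcript of another locus was 100% for mt-Co2, 99.9% for mt-Co3, 99.5% for mt-Atp6, 98.0% for mt-Nd3 and 98.8% for mt-Nd4l, and the 5 genes were close to empty in the table. mt-Co1 and mt-Nd4 shared 51.1% and 62.2% of their words, mt-Nd2 and mt-Nd5 8.19% and 7.61%, and mt-Nd1, mt-Nd6 and mt-Cytb none. mt-Atp8, the shortest of the genes, had at most 1 read per library. None of its words was in another annotated transcript, but a copy outside annotated transcripts would not be seen by this search.

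**Figure D1:**
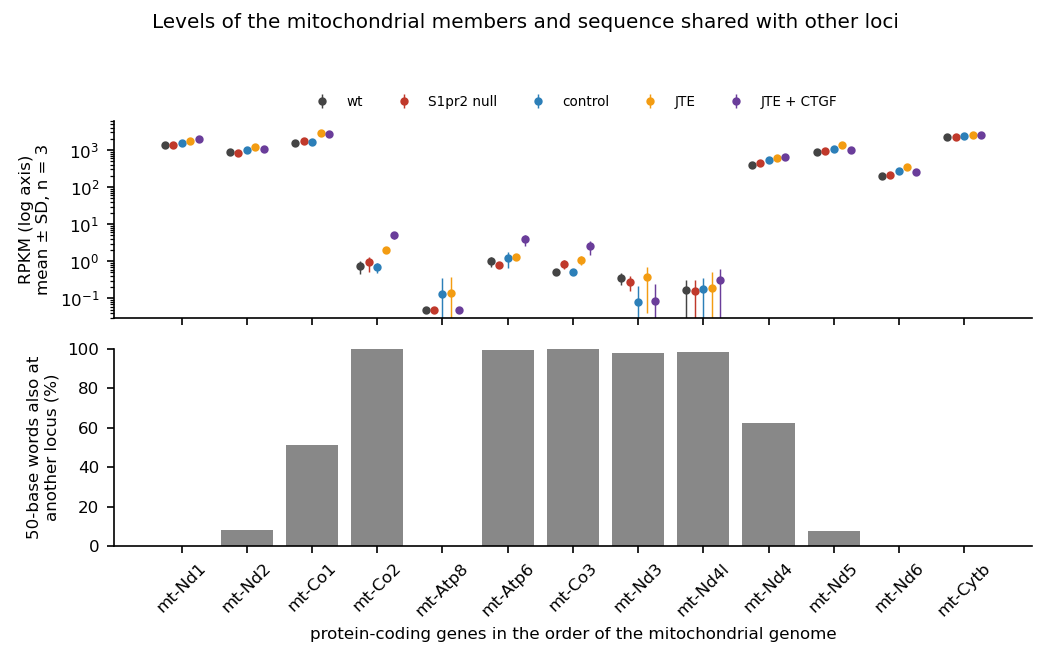
Upper panel, reads per kilobase and library size (RPKM, log axis) of the 13 mitochondrial protein-coding genes in the order of the genome, as mean ± SD of 3 libraries per group, with means under 0.05 drawn at 0.05. Lower panel, share of 50-base words of each gene that also occur in an annotated transcript of another locus. mt-Co2, mt-Atp6, mt-Co3, mt-Nd3 and mt-Nd4l, with 98.0% to 100% shared words, lie orders of magnitude below mt-Nd1, mt-Co1 and mt-Cytb.

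The promoters of the nuclear members were inspected for short words of factors known for respiratory genes, since many members moved together. RefSeq promoters on GRCm38.p6, the assembly of mm10, matched 66 of the 85 nuclear members by symbol (71 promoters of 250 bases before to 50 bases after the start), and words were counted on both strands. TGCGCA, the core of the site of nuclear respiratory factor 1 (NRF1), occurred in 25.4% of the members' promoters and in 7.76% of all promoters. The longer NRF1 word GCGCATGC, which can overlap it, occurred in 14.1% and 2.71%, the YY1 word AAGATGGC in 12.7% and 2.75%, the ETS word CCGGAAGT in 7.04% and 3.89%, and the SP1 word GGGCGG in 38.0% and 35.7%. Among protein-coding genes the shares were 11.2%, 4.14%, 3.45%, 6.03% and 54.0% in the same order. For contrast, 3 members that behaved differently in the comparisons below, chosen after their values were seen, are shown, each as the 250 bases before its start, with the words in capitals.
Ndufa6, chr15:82354292-82354541, minus strand: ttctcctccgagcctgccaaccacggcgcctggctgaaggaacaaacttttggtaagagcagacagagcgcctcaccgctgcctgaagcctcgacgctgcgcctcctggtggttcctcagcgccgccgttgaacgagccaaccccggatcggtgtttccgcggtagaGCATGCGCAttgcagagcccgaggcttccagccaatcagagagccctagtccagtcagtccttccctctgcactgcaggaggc
Cox7a2l, chr17:83514334-83514583, minus strand: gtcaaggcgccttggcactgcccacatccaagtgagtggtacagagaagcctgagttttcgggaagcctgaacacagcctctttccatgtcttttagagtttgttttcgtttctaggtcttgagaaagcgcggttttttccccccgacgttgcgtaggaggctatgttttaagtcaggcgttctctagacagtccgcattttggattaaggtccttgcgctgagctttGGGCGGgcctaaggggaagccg
Cox7a1, chr7:30183921-30184170, plus strand: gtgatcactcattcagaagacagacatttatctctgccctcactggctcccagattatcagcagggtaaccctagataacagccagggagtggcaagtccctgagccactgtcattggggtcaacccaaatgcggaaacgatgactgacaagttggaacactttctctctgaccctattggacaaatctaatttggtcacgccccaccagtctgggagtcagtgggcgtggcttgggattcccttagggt
Over the whole window that was searched, which runs past the printed bases, Ndufa6, which rose with JTE, held both overlapping NRF1 words in one run (at -83 and -80 from the start), TGCGCA once more at 28 and the SP1 word at 42. Cox7a2l, which rose with JTE and again with CTGF, held the SP1 word at -22 and at 12, and Cox7a1, which was lower in the null, held none of the words searched. A word is a description of these letters and not a bound site.

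By counted reads per length, 5 mitochondrial transcripts ranked highest in the set. In wt pancreata they were mt-Cytb (2223 RPKM), the single mitochondrial subunit of complex III, mt-Co1 (1581 RPKM), the catalytic subunit of complex IV, and mt-Nd1 (1395 RPKM), mt-Nd5 (906 RPKM) and mt-Nd2 (865 RPKM) of complex I. The highest nuclear members were Cox4i1 (625 RPKM), a regulatory subunit of complex IV, the catalytic subunits of the ATP synthase Atp5b and Atp5a1 (350 and 349 RPKM), Cox6b1 (345 RPKM) and Ndufa4 (298 RPKM). mt-Nd4 (401 RPKM) lay below Cox4i1 and mt-Nd6 (197 RPKM) below all of these, and the other mitochondrial genes were close to empty. Reads that fit another locus equally well were not counted. The RPKM of mt-Co1 and mt-Nd4, with 51.1% and 62.2% shared words, and of the near-empty genes can thus be too low. The order given is one of counted reads and does not settle the order of transcript levels. The median of the nuclear members was 68.0 RPKM.

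As a share of all assigned reads, nuclear members took 1.14% ± 0.0189 (SD, n = 3) in wt, 1.05% ± 0.0218 in S1pr2 null, 0.877% ± 0.0212 in control explants, 0.898% ± 0.0113 in JTE and 0.978% ± 0.0479 in JTE + CTGF. The mitochondrial members took 1.02% ± 0.0310, 1.07% ± 0.106, 1.04% ± 0.0765, 1.31% ± 0.0884 and 1.23% ± 0.0191 in the same order. The 2 origins therefore did not follow each other: the nuclear share was highest in fresh wt organs, and the mitochondrial share in the explants that received JTE013. Mitochondrial reads per nuclear member read were 0.893, 0.908 and 0.875 in wt, 1.09, 0.920 and 1.02 in S1pr2 null, 1.25, 1.13 and 1.17 in control, 1.38, 1.43 and 1.58 in JTE, and 1.35, 1.24 and 1.19 in JTE + CTGF. All explants lay above all fresh organs, and the JTE libraries above all others.

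**Figure D2:**
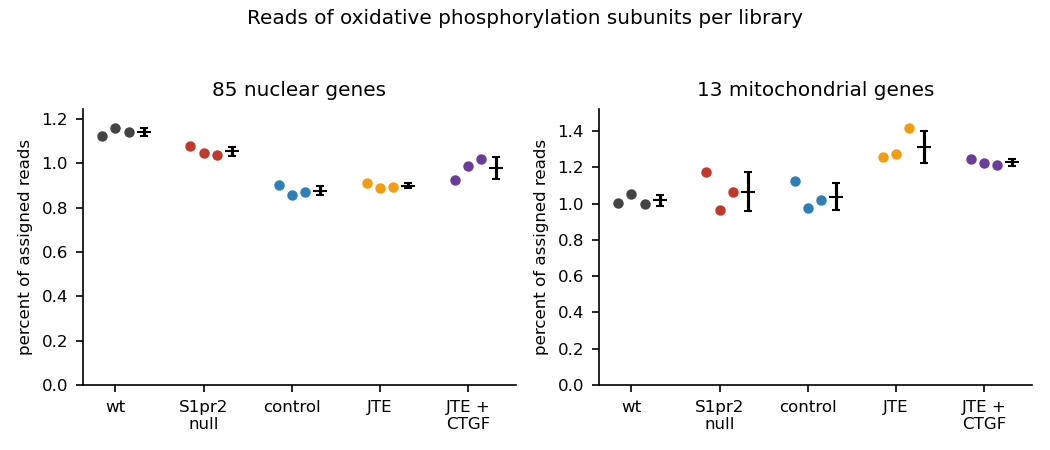
Percent of assigned reads on the 85 nuclear and 13 mitochondrial members in each library (points), with the mean ± SD of the 3 libraries per group beside them. The nuclear share falls from 1.14% in wt to 0.877% in control explants, and the mitochondrial share is 1.31% in JTE against 1.04% in control.

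Across the 5 groups, 40 of the 82 tested nuclear members had their highest mean in wt and 37 in JTE + CTGF, whereas 39 had their lowest mean in control explants, 20 in JTE and 14 in S1pr2 null. The groups are compared in turn below. In bulk tissue, fewer cells of a type and less RNA per cell cannot be told apart.

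After 2 days of culture, transcripts of the nuclear subunits were lower than in the fresh organ, while those of the mitochondrial genome were not. Of 82 nuclear members, 58 were lower and 4 higher in control explants than in wt at an adjusted P below 0.05 (edgeR), against 29.3% lower and 28.5% higher among all genes tested. Of 10 mitochondrial members, 5 were higher and none lower, also at an unadjusted P below 0.05 and in DESeq2, and of the 5 with under 10% shared words 4 were higher. The fall reached every complex: 24 of 35 nuclear members of complex I were lower, 4 of 4 of complex II, 7 of 9 of complex III, 10 of 17 of complex IV and 13 of 17 of complex V. The median log2 fold change was -0.25 for nuclear members, -0.01 for protein-coding genes of the same length range and 0.19 for mitochondrial members.

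The core subunits changed little but evenly. Atp5b, the catalytic beta subunit of the ATP synthase, had 17832, 19372 and 18586 normalised reads in wt and 14642, 14507 and 13917 in control, without overlap (log2 fold change -0.37 ± 0.0481 SE, adjusted P = 4.48e-06). Cyc1, the haem-carrying cytochrome c1 of complex III, fell from 2301, 2579 and 2416 to 1859, 1809.6 and 1789 (-0.42 ± 0.0548, adjusted P = 5.24e-06). Of the iron-sulphur and flavin subunits that carry the electrons through complex I, 5 of 7 were lower, among them Ndufv2 (-0.32 ± 0.0612) and Ndufs1 (-0.30 ± 0.0434). All members of complex II fell, Sdhb by 0.33 ± 0.0472, Sdha by 0.30 ± 0.0458, Sdhd by 0.28 ± 0.0562 and Sdhc by 0.14 ± 0.0569 on the log2 scale.

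Larger changes were found among isoforms and genes of few reads. Atp5g1, one of 3 genes that encode the c subunit of the rotor of the ATP synthase, had 174, 189.6 and 185 normalised reads in wt and 66.9, 72.4 and 84.4 in control (-1.29 ± 0.157, adjusted P = 2.35e-06), and per kilobase it made 1.82% of the level of Atp5g3 in wt and 0.909% in control. Cox6b2, the testis-type form of subunit 6b, fell from 201, 196 and 182 to 81.8, 98.5 and 73.9 (-1.19 ± 0.129, adjusted P = 6.74e-07). Cox7c, of which 22.1% of words are shared with other loci, fell from 159, 158 and 178 to 78.6, 77.4 and 86.4 (-1.03 ± 0.134, adjusted P = 4.71e-06). The 4 nuclear members that rose were Cox4i2 (0.85 ± 0.170), Ndufa4l2 (0.80 ± 0.180), Ndufa1 (0.49 ± 0.0855) and Uqcrq (0.20 ± 0.0626), small subunits of complexes I and III. Cox4i2 and Ndufa4l2 are known as hypoxia-induced forms of Cox4i1 and Ndufa4, whose own changes were 0.04 ± 0.0576 and -0.10 ± 0.0713 and did not pass the test. The criterion of the study, explained below and met by 13.6% of protein-coding genes, was met by Ndufa4l2, which was higher, and by Atp5g1, Cox6b2 and Cox7c, which were lower. The mitochondrial genes that rose were mt-Nd6 (0.48 ± 0.0962), mt-Nd4 (0.42 ± 0.0711), mt-Nd2 (0.25 ± 0.0591), mt-Nd5 (0.20 ± 0.0666) and mt-Nd1 (0.18 ± 0.0598), all of complex I, whereas mt-Co1 (0.09 ± 0.0889) and mt-Cytb (0.12 ± 0.0795) did not pass the test.

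Other lists of the system held more lower than higher genes, where 29.3% of all genes tested were lower. Of the mitochondrial ribosomal protein genes 50 of 76 were lower, of complex I assembly factors 10 of 17 lower and 1 higher, of assembly factors of complexes II, III and V 9 of 13 lower, and of the factors that maintain and transcribe mitochondrial DNA 16 of 26 lower. Nearer to that background, 8 of 23 complex IV assembly factors were lower (34.8%) and 2 higher, and 19 of 79 cytosolic ribosomal protein genes were lower (24.1%) and 1 higher. The falls of Ndufaf2 (-0.97 ± 0.0987), an assembly factor of complex I, Cox17 (-0.95 ± 0.185), a copper chaperone of complex IV, and Lyrm7 (-2.27 ± 0.287), which serves the insertion of the Rieske protein into complex III, were the largest in their lists. Ucp2, an uncoupling protein of the inner membrane, rose (0.99 ± 0.0804). Culture, age and the part of the organ taken cannot be told apart in this comparison, in which all 9 red blood cell markers were lower and 7 of 8 macrophage markers higher in the explants. Epithelium markers were higher in 5 of 7 and lower in none, and mesenchyme markers higher in 4 of 7 and lower in 2. Pancreas markers, 2 of 5 higher and 1 lower, summed to 28959 to 40300 normalised reads in wt and 80472 to 107770 in control. Most of these reads were those of Cpa1. The part of these cells was not tested. When libraries were scaled to total reads, the median of all genes moved to -0.17 and that of the nuclear members to -0.40, and the mitochondrial members called higher fell to 2.

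In S1pr2 null pancreata no member of the set was higher than in wt, and 19 nuclear members (23.2%) were lower, with log2 fold changes from -1.02 (Cox7a1) to -0.17 (Ndufa8). Among all genes tested 12.6% were higher and 13.3% lower, and among protein-coding genes of the same length range 16.3% were lower. The lower members were 9 of complex I, 1 of complex II, 3 of complex III, 5 of complex IV and 1 of complex V, and the median over all 82 nuclear members was -0.13, against -0.05 for protein-coding genes of that length range. With the trend of each library on gene length removed, the median was -0.08 and 15 members were lower, the calls of Cox6a1, Ndufa12, Ndufa8 and Ndufb9 being lost. No mitochondrial member was called in either direction, with a median of 0.09. For these counts of none, edgeR gave 0 genes at an unadjusted P below 0.05 and DESeq2 0 at an adjusted one.

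Cox7a1 (ENSMUSG00000074218, chr7:30184171-30186028), the heart and skeletal muscle form of subunit 7a, showed the largest fall. It had 114, 157 and 126 normalised reads in wt and 76.5, 60.9 and 58.0 in S1pr2 null, without overlap (-1.02 ± 0.168, adjusted P = 0.000298), and it was the single member that met the criterion of the study, which asks for a mean above 100 normalised reads in 1 of the groups, a fold below 0.6 or above 1.6 and an adjusted P no greater than 0.1, and which 3.36% of protein-coding genes tested met. Its widely expressed partner Cox7a2 fell less, from 1319.7, 1391 and 1362 to 1245, 1107 and 1153 (-0.22 ± 0.0710, adjusted P = 0.0326), so that per kilobase Cox7a1 made 20.2% of Cox7a2 in wt and 11.5% in the null. Ndufa4l2 (-0.73 ± 0.199), Ndufs5 (-0.53 ± 0.162) and Cox7c (-0.51 ± 0.126) followed. Ndufs5, a subunit of the intermembrane-space arm of complex I, had 298, 244 and 257 reads in wt and 234, 119 and 203 in the null, of which the second lies far below the others, and 21.7% of its words are shared with other loci. Of the core subunits, Cyc1 (-0.21 ± 0.0543), Uqcrc2 (-0.19 ± 0.0431), Sdhd (-0.23 ± 0.0558) and Atp5b (-0.19 ± 0.0481) were lower, while the 7 core subunits of complex I had adjusted P-values of 0.0950 (Ndufs8) or above.

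Among the regulators of mitochondrial biogenesis, 3 of 15 were lower and 1 higher in the null. Ppargc1a, the coactivator PGC-1alpha, was lower (-0.80 ± 0.177), as was the nuclear receptor Ppara (-0.73 ± 0.207). In the list of electron carriers and ADP exchange 6 of 23 genes were lower (26.1%) and none higher, where 13.3% of all genes tested were lower. Coq8a, of coenzyme Q synthesis, was lower (-0.75 ± 0.164), as was the ADP/ATP carrier Slc25a5 (-0.28 ± 0.0460). Slc25a4, another ADP/ATP carrier with more reads, was not called, with means of 3556 ± 124 normalised reads in wt and 3919 ± 160 in the null. Of epithelium markers 6 of 7 were lower in the null, with sums of 18509 to 19576 normalised reads against 25311 to 27254 in wt. Of mesenchyme markers 4 of 7 were lower and 1 higher, with sums of 98876 to 117990 against 129260 to 131320. Of 9 red blood cell markers the embryonic globins Hbb-y (1.44), Hbb-bh1 (2.15) and Hba-x (1.01) were higher on the log2 scale and the adult globins Hba-a2 (-0.57), Hbb-bt (-1.01) and Hbb-bs lower. Of 5 muscle markers tested, 1 was called lower, Acta2 (-0.33 ± 0.106), and 0 higher. In this list 2 changes lay above and 3 below 0, with a median of -0.08. The part of all these cells in the results was not tested. The number of lower nuclear members was 10 without the second wt library, 11 and 12 without the second or the third null library, and 30 when only these 6 libraries were fitted.

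With JTE013, 18 nuclear members were higher and 12 lower than in control explants. These shares, 22.0% and 14.6%, were below those of all genes tested, of which 25.9% were higher and 26.2% lower, so the nuclear members were not called more often than genes at large. With the length trend of each library removed, 30 were higher and 8 lower. Of the mitochondrial members 6 of 10 were higher and none lower, also at an unadjusted P below 0.05 and in DESeq2, and 9 were higher with the length trend removed. The 6 include mt-Co2 and mt-Co3, which were near empty in control and entered the test through groups where they had more reads; of the 5 members with under 10% shared words 3 were higher. Complex I had 9 higher and 3 lower, complex II 1 and none (1 at an unadjusted P below 0.05), complex III 2 and 1, complex IV 4 and 4, and complex V 2 and 4. Medians were 0.04 for nuclear members, -0.04 for protein-coding genes of the length range and 0.30 for mitochondrial members.

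The most abundant member to rise was mt-Co1, the catalytic subunit of cytochrome c oxidase. It had 37496, 30272 and 30389.9 normalised reads in control and 50114, 53313 and 58766 in JTE (0.72 ± 0.0893, adjusted P = 4.05e-06), and all JTE libraries exceeded all controls. The gene spans chrM:5328-6872, and 51.1% of its words also occur at another locus. mt-Nd5, a proton-pumping subunit of complex I, rose from 25150.4, 23164 and 23400.1 to 29849, 32056 and 32357 (0.39 ± 0.0666, adjusted P = 0.000101). mt-Nd6, which lies on the opposite strand and overlaps the end of mt-Nd5 (chrM:13552-14070 and chrM:11742-13565), rose by a like amount (0.35 ± 0.0947), and mt-Nd2 by 0.26 ± 0.0591. Other mitochondrial genes differed less. mt-Cytb had 39116, 31713 and 33285 reads in control and 35937, 37181 and 38402 in JTE, which overlap (0.10 ± 0.0795, adjusted P = 0.314), and mt-Nd1 changed by 0.12 ± 0.0597 and mt-Nd4 by 0.15 ± 0.0709 without passing the test. With the length trend removed these genes were called higher too, at 0.18 ± 0.0695, 0.19 ± 0.0495 and 0.23 ± 0.0701, beside 0.81 ± 0.0857 for mt-Co1; the difference between mitochondrial genes was not tested. mt-Co2 (1.51 ± 0.380) and mt-Co3 (1.07 ± 0.416) were also called, from 4.02 to 7.43 and 4.17 to 6.03 normalised reads in control, and with nearly all of their words shared these values are uncertain.

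Nuclear members of complexes I and II that rose included Ndufa6, a LYR-motif accessory subunit, with 1269, 1061 and 1029 normalised reads in control and 1646, 1658 and 1585 in JTE (0.54 ± 0.0779, adjusted P = 2.01e-05). Ndufs7, which holds the last iron-sulphur cluster before ubiquinone, rose from 704, 681 and 718 to 990.3, 939 and 940.3 (0.45 ± 0.0604, adjusted P = 1.01e-05), and Sdhb, the iron-sulphur subunit of complex II, from 1081, 1031 and 977 to 1374, 1371 and 1394 (0.42 ± 0.0473, adjusted P = 1.40e-06). In each the groups were apart by more than the spread of either. Ndufb9 (0.45 ± 0.0740) and Ndufb10 (0.44 ± 0.0681), accessory subunits of the membrane arm, rose alike. Ndufa1 (-0.49 ± 0.0861) and Ndufb2 (-0.40 ± 0.114), likewise of the membrane arm, fell, and Ndufb2 overlaps Braf and Adck2 in the annotation.

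Isoforms of complex IV moved in opposite directions. Ndufa4l2 (ENSMUSG00000040280, chr10:127514939-127517152) had 124, 129.7 and 134 normalised reads in control and 59.2, 35.7 and 41.9 in JTE (-1.51 ± 0.193, adjusted P = 6.13e-06). Cox4i2 fell from 62.6, 78.4 and 82.3 to 32.8, 41.9 and 38.1 (-0.98 ± 0.174, adjusted P = 0.000160). These are the 2 forms that had risen in culture, and the JTE libraries lay below the range of the fresh wt organs for Ndufa4l2 and within or below it for Cox4i2. Part of the reads of Ndufa4l2 may belong to Shmt2, with which it overlaps. Cox6b2 rose from 81.8, 98.5 and 73.9 to 146, 145 and 131 (0.73 ± 0.134, adjusted P = 0.000226). Cox7a2l, which takes part in joining complexes III and IV into supercomplexes, rose from 1111, 1062 and 941 to 1393, 1475 and 1413 (0.46 ± 0.0810, adjusted P = 0.000151), with 13.8% of its words shared with other loci. Cox6a2, a heart and skeletal muscle form, had 0 to 1 reads in the control libraries and 6, 11 and 20 in JTE, which puts it at least 3.88-fold higher against a floor of 3 reads per library. It was near empty in control and in fresh organs and entered the test through the groups where it had more reads, and it overlaps Itgad. By the criterion of the study, met by 9.24% of protein-coding genes, Cox6b2 and mt-Co1 were higher and Ndufa4l2 lower.

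Genes that serve the complexes were more often higher than lower, where 25.9% of all genes tested were higher and 26.2% lower. This was not particular to them, since 34 of 79 cytosolic ribosomal protein genes were higher and 3 lower. Of the assembly factors of complex I 7 of 17 were higher, of complexes II, III and V 8 of 13, and of complex IV 9 of 23 with 2 lower. The largest changes were those of Ecsit (0.78 ± 0.0849) and Ndufaf4 (0.59 ± 0.0941) for complex I, Lyrm7 (0.82 ± 0.336) and Sdhaf3 (0.79 ± 0.162) for complexes III and II, and Cox17 (0.54 ± 0.191) for complex IV. Of 15 regulators 6 were higher and 1 lower, led by Ppargc1a, which had a mean of 43.1 ± 3.88 normalised reads in control and 141 ± 12.6 in JTE (1.71 ± 0.155, adjusted P = 1.31e-07), and Ppara (1.21 ± 0.206). Ucp2 fell from 3590.0 ± 352 to 1371 ± 123 (-1.39 ± 0.0818) and Coq10a, a coenzyme Q-binding protein, rose (0.81 ± 0.109). JTE explants had lower levels of all 8 macrophage markers (median -1.64), 5 of 6 endothelium and 6 of 7 epithelium markers, and their part in these results was not tested. Without the third JTE library 19 nuclear members were higher and 8 lower, and 5 mitochondrial members higher.

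**Figure D3:**
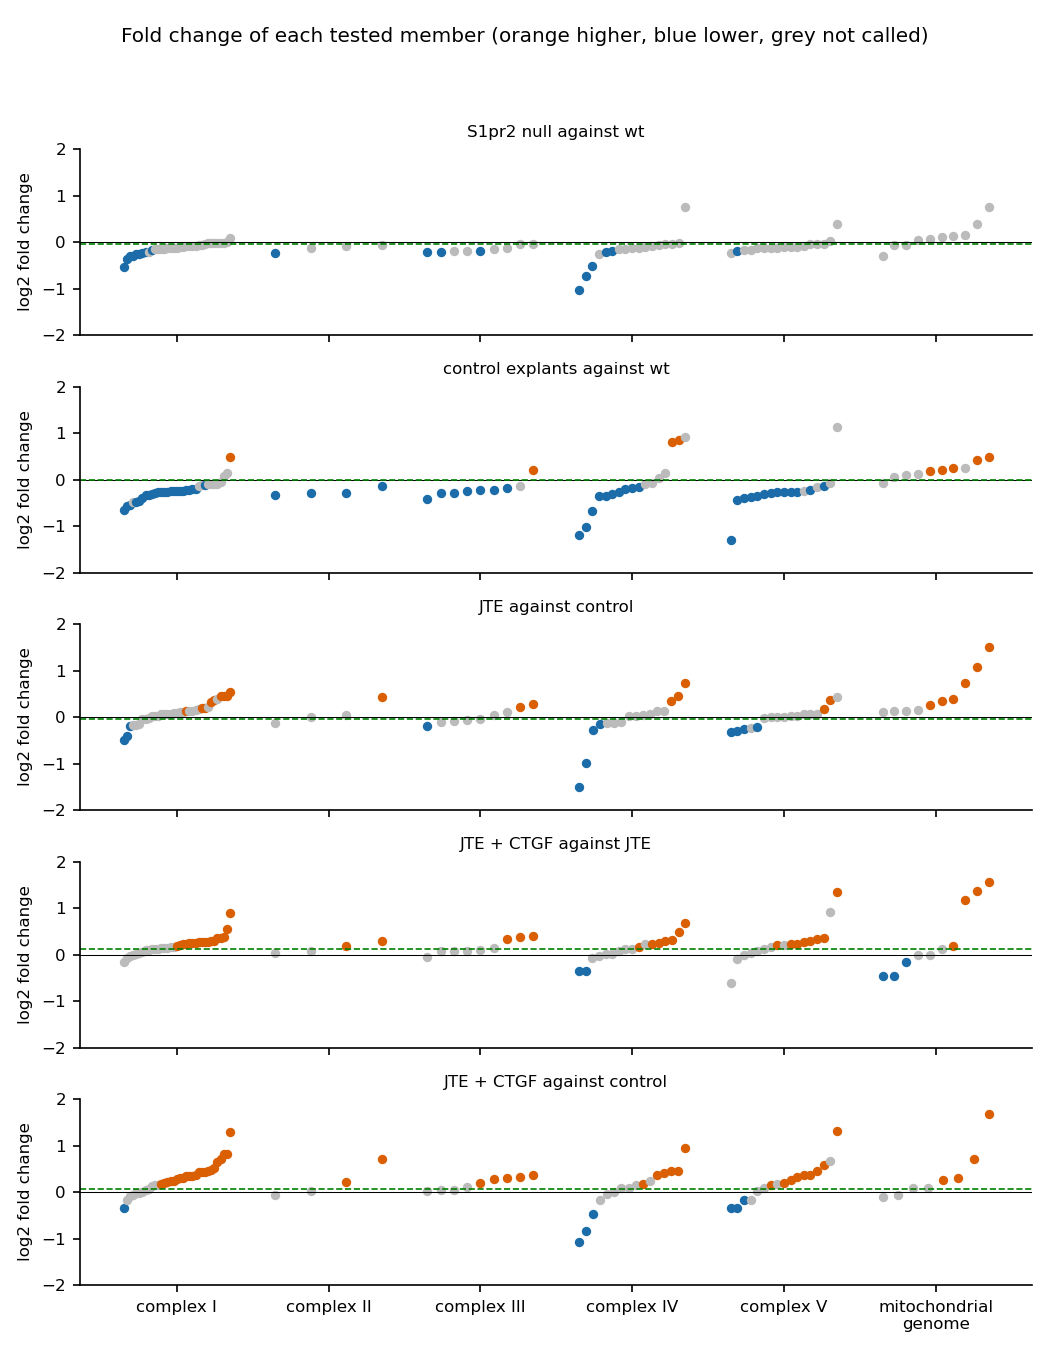
Log2 fold change of each tested member in the 5 comparisons, by complex for nuclear members and together for the mitochondrial genome, ordered by size within each block; orange and blue mark members higher and lower at an adjusted P below 0.05 (edgeR), grey those not called, and the dashed green line the median of protein-coding genes of the same length range. Points beyond 2 (Cox6a2 with JTE or JTE + CTGF against control, mt-Co2 and mt-Co3 with JTE + CTGF against control) are not drawn; nuclear members lie mostly below 0 in culture and mostly above 0 once CTGF was added.

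When CTGF was added to JTE013, nuclear subunits rose in all complexes. Compared with JTE alone, 38 of 82 were higher and 2 lower, against 13.6% and 16.8% of all genes tested. Among protein-coding genes of the same length range, 22.4% were higher and 4.54% lower. Complex I had 18 higher and none lower, complex II 2 and none, complex III 3 and none, complex IV 7 and 2, and complex V 8 and none, where none also holds at an unadjusted P below 0.05. Of the 10 mitochondrial members 4 were higher and 3 lower. The 4 include mt-Co2, mt-Co3 and mt-Atp6, with few reads and 99.5% to 100% shared words, which entered the test through groups where they had more reads. Of the 5 mitochondrial members with under 10% shared words 1 was higher and 3 lower, with a median of -0.16, whereas the median of all 10 was 0.06, and 0.13 without the third JTE library. Nuclear members had a median of 0.17, where protein-coding genes of the length range of the nuclear members had 0.13. Of 9 red blood cell markers 5 were higher in JTE + CTGF (median 1.33), with sums of 1462 to 2340.5 normalised reads against 265 to 698 in JTE, and the part of these cells was not tested.

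The length range matters, since short genes as a whole were higher with CTGF. The tested nuclear members had a median length of 1234 bases (364 to 5628) against 3431 for all genes tested, and 8 of 82 exceeded that value. In the sixth of all genes that is shortest, which holds 50 nuclear members, the median log2 fold change was 0.15 for the members and 0.15 for all genes, while the longest sixth had -0.26. In the second sixth, with 17 members, it was 0.25 for members and 0.13 for all genes. With the length trend of each library removed, 17 nuclear members were higher and 6 lower with a median of 0.04, and 21 of the 38 calls were lost, Ndufa6, Ndufb10 and Ndufs7 among them. In the culture comparison the same sixths gave -0.23 for members and -0.07 for all genes, and removal of the trend left 63 lower and 4 higher.

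**Figure D4:**
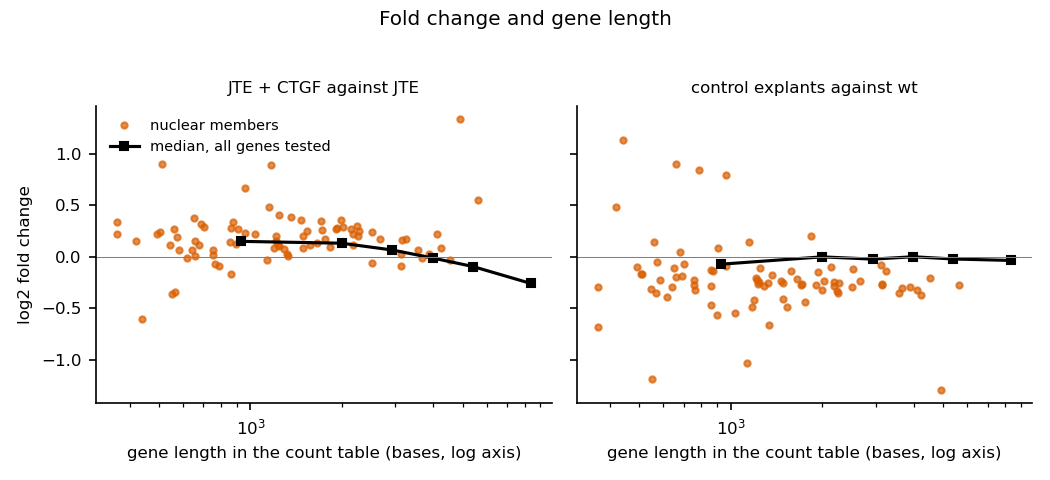
Log2 fold change against gene length in the count table (bases, log axis) for nuclear members (orange points) with JTE + CTGF against JTE and with control explants against wt; black squares give the median of all tested genes in sixths by length, at the median length of each sixth. The squares run from 0.15 to -0.26 on the left and stay between -0.07 and 0.00 on the right, where most members lie below them.

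Several members kept a rise when length was taken out. Atp5g1 had 100.5, 57.2 and 63.2 normalised reads in JTE and 172, 191 and 194 in JTE + CTGF, close to the 174, 189.6 and 185 of fresh wt organs (1.34 ± 0.159, adjusted P = 1.20e-05), and it was also called with the trend removed. At 4912 bases of exons (chr11:96068852-96075670) it is among the longest members, with 11.1% of words shared with other loci, and it was the single one to meet the criterion of the study, met by 1.95% of protein-coding genes. Cox7a2l rose from 1393, 1475 and 1413 to 1789, 1943 and 2250.4 (0.48 ± 0.0792, adjusted P = 0.000230, and 0.30 ± 0.0637 with the trend removed). Sdhb rose from 1374, 1371 and 1394 to 1654, 1700.4 and 1729 (0.30 ± 0.0464, and 0.19 ± 0.0422). Uqcrfs1, the Rieske iron-sulphur protein of complex III, rose from 1257, 1254 and 1140.3 to 1446, 1623 and 1694 (0.38 ± 0.0602, and 0.22 ± 0.0512), and Ndufb2, which JTE had lowered, rose by 0.56 ± 0.114. Ndufb4, with 18.3% shared words, rose by 0.89 ± 0.208 from 24.2 to 38.8 reads in JTE to 53.8 to 68.6. The nuclear members that fell were Cox6b2 (-0.36 ± 0.131) and Cox5b (-0.34 ± 0.0926), which binds zinc in complex IV.

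Mitochondrial genes of complex I went opposite ways. mt-Nd5 returned from 29849, 32056 and 32357 to 23364, 22668 and 22074, below every JTE library and near the control range (-0.47 ± 0.0667, adjusted P = 6.26e-05), mt-Nd6 fell by 0.46 ± 0.0953 and mt-Nd2 by 0.16 ± 0.0590. mt-Nd1 rose (0.19 ± 0.0597), and this rise was 0.00 ± 0.0495 once the length trend was removed. mt-Co1 stayed high, with 56439.8, 52441 and 52603 reads (-0.01 ± 0.0888, adjusted P = 0.966), and mt-Cytb did not pass the test. The remaining calls were mt-Co2, mt-Co3 and mt-Atp6, at 17.2 to 54.9 normalised reads.

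Of the cytosolic ribosomal protein genes 51 of 79 were higher and 1 lower, and of the mitochondrial ones 35 of 76 were higher, whereas of 15 regulators 7 were lower, among them Ppargc1b (-0.76 ± 0.211), Esrrg (-0.71 ± 0.123) and Gabpb2 (-0.68 ± 0.0605), a subunit of the ETS-type factor of respiratory genes. All genes tested had 13.6% higher and 16.8% lower. These counts were made without removal of the length trend, in which the shortest sixth of all genes had a median of 0.15 and the longest -0.26. How far length accounts for the contrast between these lists was not tested. Cycs, cytochrome c itself, rose by 0.72 ± 0.242, but it had few reads. Its mean was 15.4 ± 2.40 normalised reads in JTE and 25.4 ± 4.95 in JTE + CTGF, beside 22.1 in control and 24.2 in wt. Words shared with other loci were not searched for this gene, so the value is uncertain. Without the third JTE + CTGF library 23 nuclear members were higher, and without the third JTE library 34.

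Set against control explants, JTE + CTGF had 46 nuclear members higher and 7 lower, where 28.1% and 33.0% of all genes were called. Among protein-coding genes of the same length range, 34.6% were higher and 27.7% lower, with a median log2 fold change of 0.06. The comparison shares its control libraries with that of JTE, and the values are therefore placed side by side without a test between them. Complex I had 23 higher and 1 lower, complex II 2 and none, complex III 5 and none, complex IV 7 and 3, and complex V 9 and 3; the nuclear median was 0.21, and 38 were higher and 10 lower with the length trend removed, beside 30 and 8 for JTE. Ndufb9 had 1199.7, 1210.5 and 1063 reads in control, 1559, 1733 and 1451 in JTE and 1945, 1956 and 2248 in JTE + CTGF, with a log2 fold change against control of 0.45 ± 0.0740 and 0.82 ± 0.0739. Cox7a2l gave 0.46 ± 0.0810 and 0.94 ± 0.0807, Ndufa6 0.54 ± 0.0779 and 0.81 ± 0.0779, Ndufs7 0.45 ± 0.0604 and 0.71 ± 0.0604, and Sdhb 0.42 ± 0.0473 and 0.72 ± 0.0472. Per kilobase, Cox7a2l made 45.5% of Cox7a2 in wt, 60.8% in control, 80.3% in JTE and 110.5% in JTE + CTGF. By the criterion of the study, met by 13.2% of protein-coding genes, these 5 members, Atp5g1 and mt-Co1 were higher and Ndufa4l2 lower. Cox4i2 (-1.07 ± 0.180) and Ndufa4l2 (-0.83 ± 0.185) stayed below control. Cox6a2, which entered the test through groups where it had more reads, was at least 3.99-fold higher. Of the mitochondrial members 6 were higher, mt-Co1 by 0.72 ± 0.0893, mt-Nd1 by 0.31 ± 0.0598 and mt-Nd4 by 0.27 ± 0.0710. The others were mt-Co2, mt-Co3 and mt-Atp6, with few reads and 99.5% to 100% shared words, which entered the test through groups where they had more reads. Of the 5 members with under 10% shared words 1 was higher, with a median of 0.08 against 0.29 for all 10. All 8 macrophage, 6 of 7 epithelium and 5 of 6 endothelium markers were lower and 6 of 9 red blood cell markers higher than in control, and the part of these cells was not tested.

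**Figure D5:**
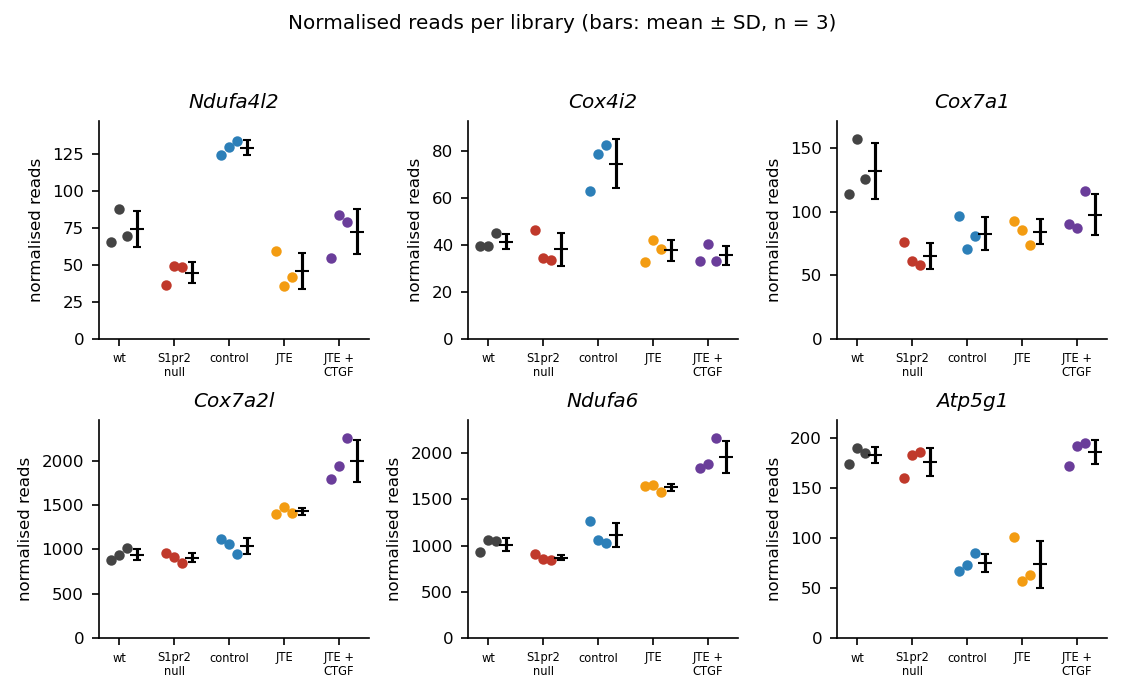
Normalised reads of 6 nuclear members in each library (points) with the mean ± SD of 3 libraries per group. Ndufa4l2 and Cox4i2 are highest in control explants, Cox7a1 in wt, Cox7a2l and Ndufa6 in JTE + CTGF, and Atp5g1 is low in control and JTE and at 172 to 194 reads in JTE + CTGF.

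The genotype and the antagonist can be set against each other, since the 2 comparisons share no library. For 27 nuclear members the response to JTE was above the response to the genotype and for 4 below, while 21.5% of all genes tested were called above and 21.5% below, and 3 mitochondrial members were above. Cytosolic ribosomal protein genes leaned the same way, with 33 of 79 above and 1 below. Ndufa6 gave -0.22 ± 0.0796 in the null and 0.54 ± 0.0779 with JTE, a difference of 0.76 ± 0.111 (adjusted P = 4.32e-05). Sdhb differed by 0.54 ± 0.0664 (adjusted P = 6.99e-06), Cyc1, which fell in the null and rose with JTE, by 0.50 ± 0.0773 (adjusted P = 7.28e-05), and mt-Co1 by 0.56 ± 0.126 (adjusted P = 0.00171). Cox7a1, lower in the null and at 0.02 ± 0.174 with JTE, differed by 1.05 ± 0.242 (adjusted P = 0.00227). Ndufa4l2 was lower in both, and more so with JTE, by -0.78 ± 0.280 (adjusted P = 0.0328), whereas Cox4i2, at -0.13 ± 0.182 in the null, differed by -0.86 ± 0.252.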

How the data were processed

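Poly(A) RNA of 15 pools of embryonic mouse pancreas was sequenced from strand-specific libraries. The authors aligned single-end reads to mm10 with GSNAP and deposited raw counts per Ensembl gene of uniquely aligned reads, made with featureCounts 1.4.6; the strand setting of the counting and the read length are not given in the sources used here. Every sample was mapped from its title, and gene symbols come from GENCODE M21, which left 542 IDs without a symbol.

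On the deposited counts the quasi-likelihood test of edgeR 4.0.16 was run in R 4.3.3 (TMM factors, filterByExpr, 1 coefficient per group, all 5 groups in one fit, no covariate), as no batch is stated. Adjustment followed Benjamini and Hochberg and covered all 16245 genes tested, and a gene was called at an adjusted P below 0.05. Normalised reads are counts scaled by TMM library size to the mean library, and RPKM relates them to the gene length of the table and to library size. Fold changes are log2 ± SE. In simulated data for JTE against control, 100 of 100 genes changed by a fold of 2 and 85 of 100 changed by a fold of 1.4 were called, as were 5 of 15716 unchanged genes. Every simulated gene had the same coefficient of variation, and the changed genes were drawn from those with a mean above 100 reads. The simulation therefore does not cover genes of fewer reads, genes of larger spread or a library that stands apart.

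Members and lists were chosen with earlier results of these data known. Members named in the text are all mitochondrial genes, core subunits, alternative isoforms with their usual forms, the 3 nuclear members of largest rise and fall among those called in each comparison, the 5 of highest RPKM in wt and the 2 called genes of largest change in each list. Ndufb2, Ndufb9, Ndufb10, Uqcrq, Slc25a4, Slc25a5, Ucp2 and Gabpb2, where the rule does not take them, were named after their values were seen. Alternatives were DESeq2 1.42.0, its size factors, total-read scaling, scaling without mitochondrial genes, no filter on low counts, removal of the trend on gene length or on length and GC content, a replicate block, fits of the compared libraries only, the criterion of the study and each library left out. Counting error limits genes of few reads, and a fold against a group at or under 3 reads per library is a bound that covers counting error only.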

Additional observations from a re-analysis of the deposited data

Results flagged for a closer look

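For 34 of the 92 tested members the response to JTE013 in explants differed from the response to the genotype in fresh organs, by a test of the difference itself (edgeR, adjusted P below 0.05). Among all genes tested 21.5% were called above and 21.5% below, so members were not called more often than genes at large. Nuclear members were above in 32.9% and below in 4.88%. This lean was not particular to them, with 41.8% above and 1.27% below among cytosolic ribosomal protein genes and 32.9% and 2.63% among mitochondrial ones. Among the named members the difference of log2 fold changes, JTE against control minus S1pr2 null against wt, was positive for Cox7a1 (1.05), Cox6b2 (0.985), Ndufa6 (0.76), Ndufs5 (0.75), Ndufs7 (0.586), mt-Co1 (0.565), Sdhb (0.544), Cox7a2l (0.512), Cyc1 (0.499) and Cox8a (0.482). It was smaller for mt-Nd2 (0.322), mt-Nd5 (0.32), Cox6a1 (0.316), Uqcrc2 (0.287), Cox7a2 (0.277), Ndufv2 (0.257) and Atp5b (0.252). It was negative for Cox4i2 (-0.856), Ndufa4l2 (-0.78) and Ndufa1 (-0.572). Fresh whole organs and cultured dorsal buds differ in more than the way the receptor is disabled, and which part of that sets the difference cannot be told apart.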

How the results depend on the processing

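Of the values of single named genes under settings other than leaving out a library, 2403 of 2590 kept their direction and their side of the threshold, 106 lost and 78 gained a call and 3 changed sign; with 1 library left out, 3739 of 3900 kept both. The 3 sign changes were those of Cox7b in JTE + CTGF against JTE, at -0.0209 with the length trend removed, -0.00749 with the length and GC trend removed and -0.0207 with a replicate block and the length trend removed, all without a call. For S1pr2 null against wt, the nuclear median moved to -0.0789, -0.0800 and -0.0789 under the same 3 settings, 30 nuclear members were lower in a fit of the compared libraries only, and 1 by the criterion of the study. For JTE against control the 3 settings gave 30, 31 and 30 higher nuclear members, the mitochondrial median was 0.447 with length and GC removed, and the criterion of the study left 1 nuclear member higher, 1 lower and 1 mitochondrial member higher. For JTE + CTGF against JTE they gave 17, 16 and 15 higher and 6, 7 and 6 lower nuclear members, nuclear medians of 0.0352, 0.0322 and 0.0353 and mitochondrial medians of -0.101, -0.00822 and -0.103, with 2 mitochondrial members higher under the block with length removed; DESeq2, its size factors, no filter and the compared libraries only each left 1 nuclear member lower, and the criterion of the study 1 higher and 0 lower, with 0 mitochondrial in either direction. For JTE + CTGF against control the mitochondrial median was 0.189 and 1 mitochondrial member was lower with length removed, with or without the block, 12 nuclear members were lower with length and GC removed, and the criterion of the study gave 6 nuclear members higher, 1 lower and 1 mitochondrial higher. For control explants against wt, scaling to total reads gave a nuclear median of -0.395, 2 mitochondrial members higher and a mitochondrial median of 0.0474, and the criterion of the study 1 nuclear member higher, 3 lower and 0 mitochondrial. The criterion of the study asks for larger changes and so calls fewer genes; the cause of the other shifts was not tested.

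With each library left out in turn, the nuclear members called higher ranged from 0 to 0 for S1pr2 null against wt, 14 to 19 for JTE against control, 23 to 43 for JTE + CTGF against JTE, 39 to 50 for JTE + CTGF against control, 3 to 7 for control explants against wt and 24 to 31 for the difference of responses. Those called lower ranged from 10 to 22, 8 to 14, 1 to 2, 6 to 8, 46 to 60 and 2 to 4 in the same order. Mitochondrial members called higher ranged from 0 to 0, 5 to 7, 3 to 4, 6 to 7, 3 to 5 and 3 to 5, and lower from 2 to 3 for JTE + CTGF against JTE and 0 to 0 elsewhere. Nuclear medians ranged from -0.140 to -0.109, 0.0253 to 0.0853, 0.134 to 0.228, 0.165 to 0.254 and -0.275 to -0.231, and mitochondrial medians from 0.00456 to 0.170, 0.244 to 0.449, 0.0326 to 0.132, 0.261 to 0.324 and 0.0820 to 0.219. The libraries that moved a count by over 1.5 times, beside those named above, were the third wt and first control library, without which 3 mitochondrial members were higher in culture, the third control library (7 nuclear members higher in culture), and, for the difference of responses, wt libraries 1 and 3 and JTE library 3 (2 nuclear members below) and the first control library (5 mitochondrial members above). Samples of the same number shared only that number, with correlations of their deviations from -0.0785 to 0.210; with a replicate block, 19 nuclear members were lower in S1pr2 null, 17 higher and 13 lower with JTE, 37 and 2 with CTGF added, 45 and 7 with both against control, and 4 and 55 in culture.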
